A study of Mus musculus with 42 samples.

Results

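The 10 immediate early genes Fos, Fosb, Jun, Junb, Egr1, Ier2, Atf3, Nr4a1, Dusp1 and Zfp36 were read on 42 single-colour Agilent mouse arrays. They were chosen by name, as the probes whose gene name in the scanner output is one of these symbols. All 10 genes were found, on 13 of the 34891 probes with a gene symbol, among 21186 genes in all. Fos, Fosb, Jun, Egr1, Atf3, Nr4a1 and Dusp1 had 1 probe each, and Junb, Ier2 and Zfp36 had 2.

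The arrays came from 7 groups of 3 mice, each sampled in aorta and skeletal muscle. The healthy group (G) was C57BL/6. The diabetic group (A) was KK/Ay, a mouse strain that becomes obese and diabetic. The macroangiopathy group (C) was KK/Ay that also received L-NAME, which blocks nitric oxide synthase, together with a high-fat diet, to model large-vessel disease in diabetes. All 4 treated groups were this model too. They received the SHENQI compound (B), its component prescriptions yangyinyiqi (D) or huoxue (E), or rosiglitazone (F), an agonist of the nuclear receptor PPARG. Per the methods, all mice were male, dosing was by gavage, and groups G, A and C received saline. Age is not given in the labels. Every comparison with group G is also a comparison of strains, so disease and strain cannot be told apart. The labels number the samples of a group but do not say that each number is a separate mouse, so the p-values measure the spread between these samples.

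Immediate early genes are transcribed within minutes of a stimulus, from transcription factors that are already in the cell, without new protein synthesis. Growth factors, stretch, calcium, catecholamines and tissue handling all induce them. Fos, Fosb, Jun and Junb encode subunits of the AP-1 transcription factor. Egr1 encodes a zinc finger factor studied in injured vessels, and Atf3 a stress-induced factor of the CREB family. Nr4a1 (Nur77) encodes an orphan nuclear receptor that is induced in exercised muscle. Dusp1 encodes a phosphatase that switches off MAP kinases, Zfp36 (tristetraprolin) a protein that speeds the decay of mRNAs with AU-rich elements, and Ier2 a nuclear protein. CREB acts through the cAMP response element (CRE), and serum response factor (SRF) through the CArG box.

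The promoters of 8 members were in the RefSeq promoter table (GRCm38.p6). Egr1 and Ier2 were not in it. In the 250 bases before each start site, the CArG box, the CRE (TGACGTCA), the shorter CRE core (TGACG), the AP-1 site (TGACTCA or TGAGTCA) and the EGR site (GCGGGGGCG or GCGTGGGCG) were sought on both strands. A CArG box was found in Zfp36 alone, 58 bases before the start, and a full CRE in Dusp1 alone, 143 bases before it. CRE cores were found in 6 members, with 4 in Nr4a1, at 233, 213, 69 and 40 bases, and 2 in Fos, at 129 and 66 bases. The full CRE in Dusp1 holds overlapping cores on both strands. EGR sites were found in Fosb, Nr4a1 and Zfp36, and none of the 5 motifs was found in Jun. Of 32851 promoter windows of the same length, 1.47% held a CArG box, 1.55% a CRE, 17.8% a CRE core, 4.46% an AP-1 site and 3.06% an EGR site. These are matches of letters, not tested sites. The promoters of Dusp1 and Zfp36 are shown for the CRE and the CArG box, and those of Fos and Nr4a1, chosen after their levels were seen, because the comparisons with healthy mice turn on them. Capitals mark the CArG box, CRE, CRE cores and EGR sites, 5′ to 3′ on the strand of the gene.
Fos promoter (chr12:85473640-85473889, plus strand): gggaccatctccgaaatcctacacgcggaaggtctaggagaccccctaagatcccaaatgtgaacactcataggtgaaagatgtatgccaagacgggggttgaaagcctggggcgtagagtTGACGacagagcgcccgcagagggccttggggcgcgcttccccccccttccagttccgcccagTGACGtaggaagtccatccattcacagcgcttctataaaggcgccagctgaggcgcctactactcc
Nr4a1 promoter (chr15:101266596-101266845, plus strand): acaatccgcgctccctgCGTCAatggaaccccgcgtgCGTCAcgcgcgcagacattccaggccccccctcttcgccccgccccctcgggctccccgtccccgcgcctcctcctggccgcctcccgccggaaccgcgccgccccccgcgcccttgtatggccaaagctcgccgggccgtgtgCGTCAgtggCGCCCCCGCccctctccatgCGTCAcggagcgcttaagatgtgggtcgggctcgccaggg
Dusp1 promoter (chr17:26508473-26508722, minus strand): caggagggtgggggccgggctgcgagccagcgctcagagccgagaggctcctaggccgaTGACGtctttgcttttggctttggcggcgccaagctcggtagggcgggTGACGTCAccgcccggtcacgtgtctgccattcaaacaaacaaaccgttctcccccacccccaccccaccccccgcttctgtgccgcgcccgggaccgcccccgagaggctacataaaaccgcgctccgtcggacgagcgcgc
Zfp36 promoter (chr7:28379229-28379478, minus strand): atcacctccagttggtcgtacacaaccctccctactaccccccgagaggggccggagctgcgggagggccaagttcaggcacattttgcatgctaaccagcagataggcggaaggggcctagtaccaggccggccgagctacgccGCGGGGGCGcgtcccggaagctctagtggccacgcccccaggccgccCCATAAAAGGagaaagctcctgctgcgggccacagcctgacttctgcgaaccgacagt

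Levels are log2 of the normalized spot intensity, so a difference of 1 is a 2-fold change. A level is compared only with the same gene, since probes differ in brightness. All members were well above background on all 42 arrays, except Fosb. Its probe passed on 21 of 21 aorta arrays and on 6 of 21 muscle arrays, and on none in diabetic and huoxue muscle, so no fold is given for Fosb in muscle. The Fos and Jun probes were each printed as 10 spots. The median SD of Fos among the spots of an array was 0.12, against a median SD of 0.38 among the 3 arrays of a set. For Jun the values were 0.14 and 0.16.

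Some arrays stood apart from their label or set. Healthy aorta array 1 had a mean smooth muscle marker level of 9.17 over 6 genes, where the other 20 aorta arrays ran from 11.62 to 13.83, and it had the highest leukocyte marker mean, 9.92. Its Myh11, the smooth muscle myosin, was at 9.15 against 12.64 to 15.43 on the others, which goes against the label. Healthy muscle array 3 had the highest leukocyte (8.46) and heat shock (11.40) marker means of the 21 muscle arrays, and the lowest smooth muscle (8.84), endothelial (7.85) and fibroblast (8.77) means. It was also at the highest level of its tissue for 7 of the 10 members. Healthy aorta array 2 was highest for 4 members in aorta. Aorta arrays also carried signal of other tissues, with brown fat marker means of 11.89 to 14.69 and skeletal muscle marker means of 7.34 to 14.99. Fewer cells of a type and less RNA per cell cannot be told apart in such samples. The main results against group G are given with and without the first 2 of these arrays.

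**Figure D1:**
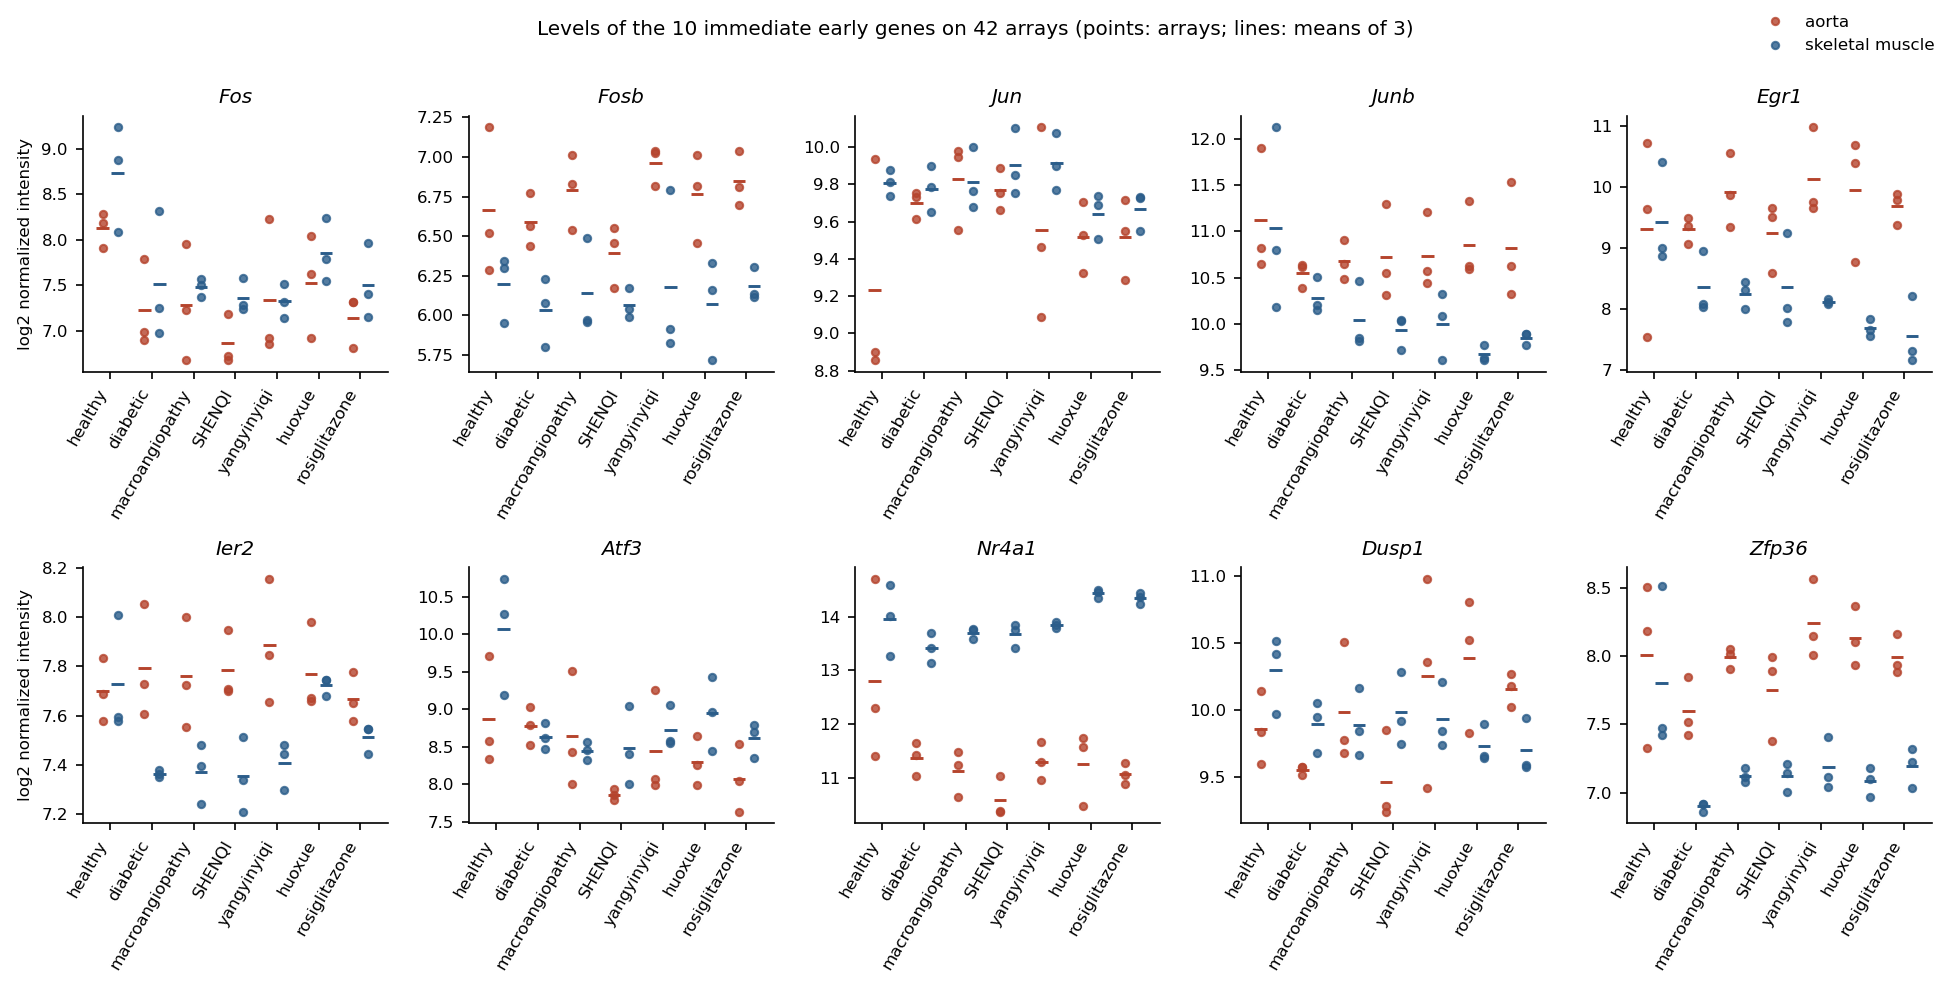
Level of each immediate early gene (log2 normalized intensity) on every array, by group, with aorta and skeletal muscle in separate colours. Points are arrays and short lines are means of 3. Nr4a1 ran from 13.13 to 14.59 in muscle and from 10.37 to 14.70 in aorta, where healthy array 2 was the highest.

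The tissues differed in 9 of the 10 members, at an adjusted p under 0.05 (limma), in the difference averaged over the 7 groups. Apart from healthy muscle array 3, no muscle array shared a slide or a scan day with an aorta array. Tissue can therefore hardly be told apart from slide and scan day in these differences. Of all 16181 genes tested, 76.9% differed, so this count is near the background. The largest difference was that of Nr4a1, at -2.55 in aorta minus muscle (SE 0.17, adjusted p = 1.02e-14), or 5.86-fold lower in aorta. Egr1 was 1.4 higher in aorta (SE 0.21), or 2.63-fold. Zfp36 (0.76), Junb (0.67) and Ier2 (0.27) were also higher in aorta. Fosb was called higher in aorta too, with no value given because its muscle levels are mostly at background. Atf3 (-0.42), Fos (-0.32) and Jun (-0.20) were lower there. Dusp1 differed by 0.03, with a 95% interval of -0.18 to 0.24. Nr4a1 was lower in aorta in each of the 7 groups, with differences from -1.16 (healthy) to -3.27 (rosiglitazone). The Egr1 difference was between 0.90 and 2.26 in the 6 KK/Ay groups and -0.12 in healthy mice. For Ier2 the sign depended on the probe. The brighter probe, above background on 42 arrays, was 0.76 higher in aorta, and the dimmer one, above background on 29, differed by -0.22, so its mean does not give a direction.

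The comparison of diabetic with healthy mice asked what differs in untreated KK/Ay mice. Fos, Nr4a1, Atf3 and Zfp36 fell below the healthy level when both tissues were averaged, which made 4 of 10 members called, all lower. Of all genes tested, 19.5% were called, and 8.23% were called and lower. The median difference of the 10 members was -0.60, against 0.03 over all genes. Fos differed by -1.06 (SE 0.26, 2.09-fold lower, adjusted p = 0.00406, limma), Nr4a1 by -0.99 (SE 0.32, 1.99-fold, adjusted p = 0.027), Atf3 by -0.77 (SE 0.27, 1.70-fold, adjusted p = 0.0451) and Zfp36 by -0.66 (SE 0.16, 1.58-fold, adjusted p = 0.00475). The Atf3 call was lost under 15 of 25 alternatives. Junb (-0.66, adjusted p = 0.0613), Egr1 (-0.54), Dusp1 (-0.36), Ier2 (-0.13), Jun (0.22) and Fosb did not pass. With the brighter probe alone Ier2 was at 0.05.

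Fos in aorta was at 8.19, 8.29 and 7.92 on the healthy arrays and at 7.79, 6.91 and 6.99 on the diabetic ones. In muscle it was at 8.08, 8.88 and 9.24 on healthy arrays and at 6.98, 8.32 and 7.25 on diabetic ones. The arrays did not overlap in aorta, and in muscle diabetic array 2 lay inside the healthy range. Within a single tissue the difference was -0.90 in aorta (adjusted p = 0.105) and -1.22 in muscle (adjusted p = 0.0348).

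Atf3 in muscle was at 9.20, 10.27 and 10.74 on healthy and at 8.47, 8.62 and 8.82 on diabetic arrays, with no overlap. The difference was -1.44 (SE 0.39, 2.71-fold, adjusted p = 0.0171). In aorta Atf3 was at 8.57, 9.72 and 8.34 on healthy and at 8.79, 9.03 and 8.53 on diabetic arrays, which overlapped, with a difference of -0.10 (95% interval -0.88 to 0.69).

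Nr4a1 in aorta was at 11.40, 14.70 and 12.30 on healthy and at 11.42, 11.64 and 11.04 on diabetic arrays. Healthy array 2 lay far above the rest, and healthy array 1 among the diabetic values. The difference was -1.44 (SE 0.45, adjusted p = 0.0328), and -0.49 (adjusted p = 0.316) without healthy array 2. Leaving out diabetic array 1, 2 or 3 instead gave -1.46, -1.57 and -1.27, and none of these passed (adjusted p = 0.0577, 0.0513 and 0.123). With both tissues averaged, Nr4a1 was at -0.52 (adjusted p = 0.0817) without healthy aorta array 2. In muscle the Nr4a1 difference was -0.55 (95% interval -1.46 to 0.37).

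Zfp36 in muscle was at 7.42, 7.47 and 8.52 on healthy and at 6.92, 6.92 and 6.86 on diabetic arrays. The groups did not overlap, and the difference was -0.91 (SE 0.23, adjusted p = 0.012). Its dimmer probe was above background on 1 of 21 muscle arrays, and the brighter probe alone gave -1.20 (adjusted p = 0.000921). In all, 3 members were called in muscle, Fos, Atf3 and Zfp36, where 7.91% of all genes were called, and 1 in aorta, Nr4a1, where 12% were. Arrays lay wholly below the healthy ones for Ier2, Atf3 and Zfp36 in muscle, as for 12.6% of all genes, and for Fos, Junb and Dusp1 in aorta, as for 7.96%.

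The calls in muscle were not kept without healthy muscle array 3. Atf3 was then at -1.10 (adjusted p = 0.11), Fos at -0.97 (adjusted p = 0.155) and Zfp36 at -0.55 (adjusted p = 0.131), and none of the 10 passed. The Fos call in muscle was lost under 9 of 18 alternatives. With both tissues averaged and healthy aorta array 1 and muscle array 3 left out, an alternative chosen after seeing the data, Fos (-0.92, adjusted p = 0.0309) and Nr4a1 (-1.51, adjusted p = 0.000471) passed, and Zfp36 (-0.36, adjusted p = 0.0844) and Atf3 (-0.67, adjusted p = 0.133) did not. The part of leukocyte signal, heat shock signal and, in aorta, the healthy arrays' slides in these differences was not tested. In muscle, the healthy arrays shared no slide and no scan day with the diabetic ones. Slide and scan day cannot be told apart from group there. On the only slide with both groups in the same tissue, the diabetic aorta array minus the mean of 2 healthy arrays was -0.26 for Fos, -0.43 for Nr4a1 and 0.33 for Atf3. It was 0.76 for Egr1, 0.74 for Jun, 0.37 for Fosb and 0.34 for Ier2. It was -0.64 for Junb, -0.49 for Zfp36 and -0.14 for Dusp1. These healthy arrays were aorta arrays 1 and 3, and array 1 is the one whose smooth muscle markers went against its label.

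**Figure D2:**
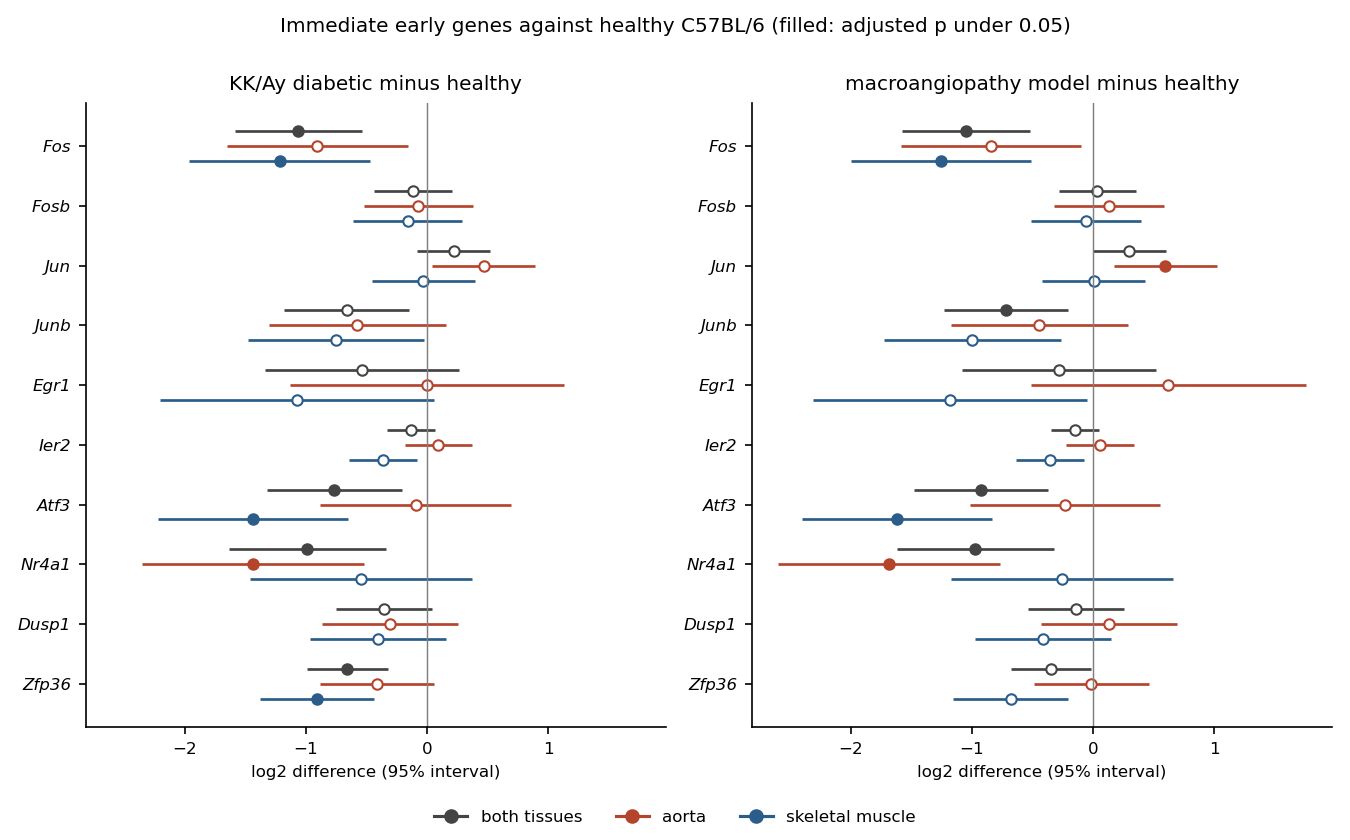
Difference from healthy C57BL/6 mice (log2, with 95% intervals) of each immediate early gene in diabetic and macroangiopathy mice, for both tissues averaged, aorta and skeletal muscle. Filled points passed an adjusted p of 0.05. The intervals of Fos with both tissues averaged end below 0 in both panels, and Jun in aorta is the only filled point above 0. Fosb in muscle was mostly at background.

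Against the macroangiopathy model, the same question was asked of KK/Ay mice with the diet and L-NAME. This comparison shares its healthy arrays with the one above, so the results are not independent. Fos, Nr4a1, Atf3 and Junb fell below the healthy level with the tissues averaged. Fos differed by -1.05 (SE 0.26, 2.07-fold lower, adjusted p = 0.00452), Nr4a1 by -0.97 (SE 0.32, 1.96-fold, adjusted p = 0.0276), Atf3 by -0.93 (SE 0.27, 1.90-fold, adjusted p = 0.0151) and Junb by -0.72 (SE 0.25, 1.65-fold, adjusted p = 0.0395). Without healthy aorta array 1 and muscle array 3, Fos (-0.91, adjusted p = 0.0292), Nr4a1 (-1.49, adjusted p = 0.000547) and Atf3 (-0.83, adjusted p = 0.0499) passed and Junb (-0.25, adjusted p = 0.463) did not. Junb also failed without healthy muscle array 3 alone (-0.45, adjusted p = 0.162), Atf3 was there at -0.76 (adjusted p = 0.0508), and Nr4a1 failed without healthy aorta array 2 (-0.50, adjusted p = 0.0904). These were 4 of 10 members, all lower, where 21.7% of all genes were called and 8.95% were called and lower. The median of the members was -0.31, against 0.03 over all genes. Zfp36 (-0.35), Egr1 (-0.28), Ier2 (-0.15), Dusp1 (-0.14), Jun (0.30) and Fosb did not pass. For Zfp36 the brighter probe alone gave -0.81 (adjusted p = 0.000689), and for Ier2 it gave 0.06. Egr1 was at 0.07 without healthy aorta array 2.

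In muscle of the model, Fos was at 7.37, 7.57 and 7.50, below all 3 healthy arrays (-1.25, SE 0.36, 2.38-fold, adjusted p = 0.0325). Atf3 was at 8.57, 8.33 and 8.45, also below all healthy arrays (-1.62, SE 0.39, 3.07-fold, adjusted p = 0.0079). These were the 2 members called in muscle, where 6.79% of all genes were called. The arrays of 5 members (Fos, Egr1, Ier2, Atf3 and Zfp36) lay wholly below the healthy ones, as did those of 12.1% of all genes. Without healthy muscle array 3 neither Fos (-1.0, adjusted p = 0.145) nor Atf3 (-1.28) passed. No slide or scan day held both healthy and model arrays in muscle, so neither can be told apart from group.

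In aorta of the model, Nr4a1 was at 11.23, 11.49 and 10.63, with healthy array 1 inside their range and the other healthy arrays above it. The difference was -1.68 (SE 0.45, 3.21-fold lower, adjusted p = 0.00887), or -0.73 (adjusted p = 0.0988) without healthy aorta array 2. Jun was at 9.95, 9.98 and 9.55 against 8.90, 9.94 and 8.86 in healthy aorta. It was the only member called higher, at 0.60 (SE 0.21, 1.51-fold, adjusted p = 0.0428), where 10.5% of all genes were called higher. It did not pass without healthy array 1 (0.43), healthy array 3 (0.41), model array 1 (0.54) or model array 2 (0.52). These 2 of 10 members compare with 18.5% of all genes. The smooth muscle markers differed too, and 6 of 6 were called higher in the model than in healthy aorta, with a median difference of 2.32. In diabetic aorta 4 of 6 were. These marker counts include healthy array 1, whose smooth muscle mean was 9.17. The other healthy aorta arrays were at 11.72 and 12.68, and the model arrays between 13.32 and 13.69. All 3 red cell markers were called higher too, with a median of 1.75 in the model and 1.43 in diabetic mice, and 2 of 5 brown fat markers were called lower in the model. The part of smooth muscle, red cell and brown fat content in the Nr4a1 and Jun differences was not tested. No slide held both healthy and model arrays in aorta, so slide and group cannot be told apart.

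The difference between the tissues was tested for each comparison with healthy mice. No member passed in the diabetic mice (limma, 2 members at an unadjusted p under 0.05, as 13.1% of all genes were, and 0.890% of all genes passed) or in the model (5 members at an unadjusted p under 0.05, as 18.2% were, and 3.16% passed). For Egr1 the model's difference was 1.80 higher in aorta than in muscle (95% interval 0.20 to 3.41, adjusted p = 0.209), for Atf3 1.39 higher (0.28 to 2.50, adjusted p = 0.158), and for Nr4a1 it was -1.43 (-2.72 to -0.13, adjusted p = 0.221). Without healthy aorta array 2, Egr1 (adjusted p = 0.0412), Atf3 (adjusted p = 0.0404) and Jun (adjusted p = 0.0216) passed, and without healthy aorta array 1, Nr4a1 did (adjusted p = 0.027).

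The treated groups showed how far the lower levels extended among KK/Ay mice, as a description. Of the 18 KK/Ay muscle arrays, 18 were below the lowest healthy array for Zfp36, 17 for Atf3, 16 for Fos, 16 for Egr1, 15 for Ier2, 14 for Junb, 14 for Dusp1 and 1 for Nr4a1. At least 16 were for 6.99% of all genes, and all 18 for 3.11%. Jun in muscle had 8 arrays below the healthy range and 5 above it. In aorta 15 of 18 were below it for Fos, 12 for Nr4a1, 12 for Junb and 10 for Atf3, where at least 15 were for 8.0% of all genes and at least 12 for 13.2%. None were for Zfp36, Jun or Egr1, and Dusp1 had 6 arrays below and 7 above. The lowest Egr1 value in aorta was on healthy array 1. The order of the Fos means in muscle, from the highest, was healthy (8.73), huoxue (7.86), diabetic (7.52), rosiglitazone (7.51), macroangiopathy (7.48), SHENQI (7.37) and yangyinyiqi (7.33). Neighbours in this order overlapped in their arrays. Diabetic array 2 (8.32) and huoxue array 3 (8.24) were the 2 KK/Ay muscle arrays inside the healthy range.

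**Figure D3:**
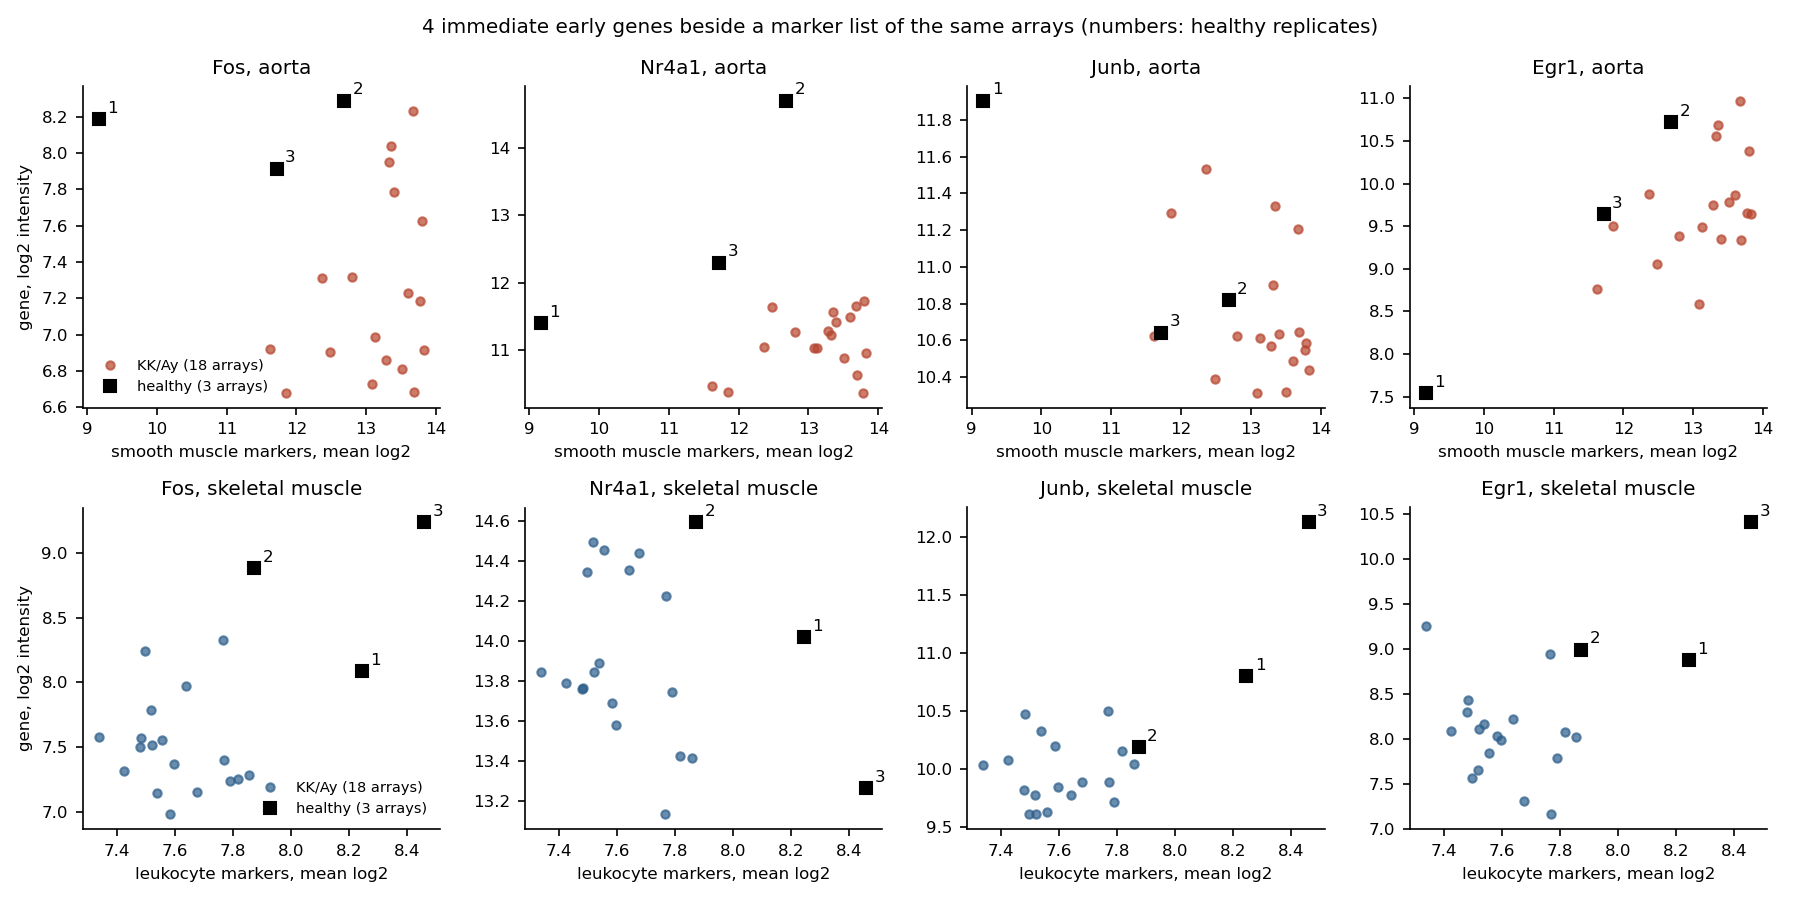
Fos, Nr4a1, Junb and Egr1 (log2 intensity, vertical axis) against the mean level of smooth muscle markers in aorta (upper row) and of leukocyte markers in skeletal muscle (lower row). Squares are the 3 healthy arrays, numbered by replicate, and dots the 18 KK/Ay arrays. Healthy aorta array 1 sits alone at a smooth muscle mean of 9.17, and healthy muscle array 3 at the highest leukocyte mean, 8.46.

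The macroangiopathy model was compared with diabetic KK/Ay mice to see what the diet and L-NAME added. No member passed in any tissue (limma), none had an unadjusted p under 0.05, and 0.00% of all genes passed. Dusp1 in aorta was at 10.51, 9.78 and 9.68 in the model and at 9.57, 9.52 and 9.58 in diabetic mice, which did not overlap (0.43, 95% interval -0.13 to 0.99). Zfp36 arrays lay wholly above the diabetic ones in aorta (0.40) and in muscle (0.22). Arrays were wholly higher for 5.34% of all genes in aorta and for 6.83% in muscle. No slide held both model and diabetic arrays, so slide and group cannot be told apart here. For Fos the difference was 0.06 in aorta (95% interval -0.68 to 0.81) and -0.04 in muscle (-0.78 to 0.71), so changes inside these intervals could not be seen.

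None of the 4 treatments changed a member at an adjusted p under 0.05, in aorta, in muscle or with the tissues averaged (limma). At an unadjusted p under 0.05 the only one was Ier2 in huoxue muscle. At that level 18.4% of all genes were in huoxue muscle. The share of all genes called was 0.00% for SHENQI and yangyinyiqi, 0.0556% for huoxue and 0.00618% for rosiglitazone with the tissues averaged. In muscle it was 4.25% for huoxue and 0.0927% for rosiglitazone.

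With SHENQI, 8 of 10 members were lower than in the model in aorta, with a median of -0.41 against -0.01 over all genes, of which 51.6% were lower. Atf3 was at 7.86, 7.93 and 7.79 with SHENQI, below all 3 model arrays at 8.43, 9.51 and 8.0. The difference was -0.78 (95% interval -1.57 to 0.003), with an unadjusted p of 0.0507 and an adjusted p of 1. It was the only member wholly below the model in aorta, as were 3.03% of all genes. Egr1 (-0.68), Dusp1 (-0.53), Nr4a1 (-0.53) and Fos (-0.42) had intervals that included 0. No slide held aorta arrays of both SHENQI and the model, so slide and treatment cannot be told apart in aorta. In muscle the differences of the 9 members other than Fosb were between -0.12 and 0.11. On the slide that held 2 arrays of each of these groups in muscle, they were between -0.31 and 0.21.

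Yangyinyiqi gave differences between -0.27 and 0.26 in aorta and, Fosb left out, between -0.16 and 0.28 in muscle. Its aorta array 1 was the highest of all 21 aorta arrays for 5 members. On that array Egr1 was at 10.97, Dusp1 at 10.98 and Fos at 8.23, against 9.75, 9.42 and 6.86 on array 2 and 9.65, 10.36 and 6.92 on array 3. This array shared a slide with the model's aorta arrays, and on that slide it was higher than their mean by 1.05 for Egr1, 0.99 for Dusp1 and 0.94 for Fos. In muscle, where 3 yangyinyiqi arrays and 1 model array shared a slide, the Fos difference on that slide was -0.18. Nr4a1 in yangyinyiqi muscle, at 13.84, 13.89 and 13.79, lay wholly above the model (0.14), as did 5.09% of all genes.

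For huoxue, Ier2 in muscle was at 7.74, 7.74 and 7.68 against 7.24, 7.40 and 7.48 in the model (0.35, SE 0.14, adjusted p = 0.149). Nr4a1 in muscle was at 14.50, 14.46 and 14.34 against 13.58, 13.77 and 13.76 (0.73, SE 0.45, adjusted p = 0.408). Egr1 and Junb arrays lay wholly below the model (-0.56 and -0.37). So 4 members did not overlap, 2 higher and 2 lower, where 26.9% of all genes were wholly higher and 19.3% wholly lower. All 3 huoxue muscle arrays were on 1 slide that held no model array, so slide and treatment cannot be told apart. With the 6 arrays fitted alone, Nr4a1 (adjusted p = 0.00138), Egr1 (adjusted p = 0.0163) and Ier2 (adjusted p = 0.0191) passed. The share of all genes called in that fit is not given here, so these calls are not read as particular to the members. With slides 1, 3 and 11 as a batch term Egr1 turned to 0.57 and Junb to 0.04. All huoxue muscle arrays were on these slides and no model muscle array was. The size of that term was thus set by arrays of other groups, and it does not test the huoxue difference. With the brighter probe alone Junb was at 0.04 and Ier2 at -0.05. No direction is given for Egr1, Junb and Ier2, whose sign depended on the alternative. Nr4a1 was higher under all 11 alternatives that kept every array of these 2 groups.

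Rosiglitazone muscle had Nr4a1 at 14.44, 14.36 and 14.23, all above the model (0.64, SE 0.45, adjusted p = 0.682, and 0.0113 with the 6 arrays fitted alone), as were the arrays of 19.2% of all genes. Fos with rosiglitazone differed from the model by -0.14 in aorta (95% interval -0.89 to 0.60) and by 0.03 in muscle (-0.72 to 0.77). Atf3 differed by -0.57 in aorta (-1.36 to 0.22), and Egr1 by -0.68 in muscle (-1.81 to 0.45), or 0.45 with the batch term. All rosiglitazone muscle arrays were on the slides of that term and no model muscle array was. Arrays of other groups set its size here too, so it does not test the rosiglitazone difference. No slide held arrays of both groups.

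**Figure D4:**
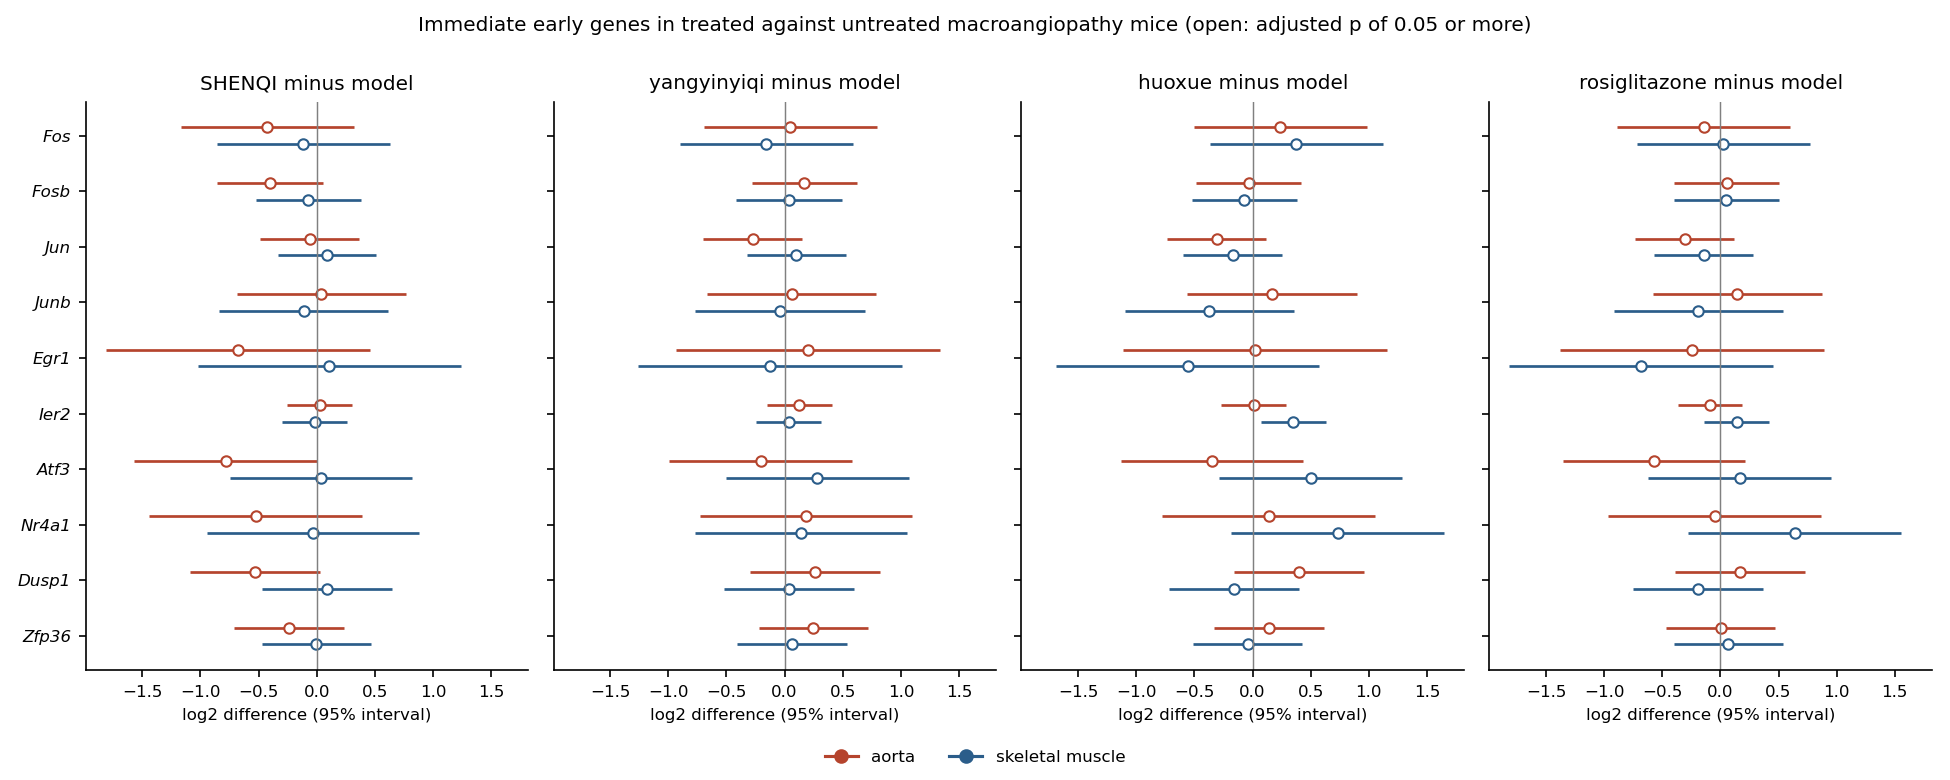
Difference from the untreated macroangiopathy model (log2, with 95% intervals) of each immediate early gene for the 4 treatments, in aorta and skeletal muscle. All points are open, since no member passed an adjusted p of 0.05. The widest intervals are those of Egr1.

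Relatives of the members and genes of the chain that induces them were read from 8 lists, of which 79 of the 82 genes on the array were tested. Against healthy mice with the tissues averaged, 8 were higher and 19 lower in diabetic mice, and 8 higher and 22 lower in the model. Of all genes, 11.3% and 12.8% were called higher in these comparisons, and 8.23% and 8.95% lower. Without healthy aorta array 1 and muscle array 3, 6.88% and 9.15% of all genes were called higher, and 6.46% and 7.74% lower. Of the 79, 6 were then higher and 12 lower in diabetic mice, and 6 higher and 11 lower in the model. Most of the lower ones belonged to a list of other early response genes, with 12 of 30 lower and 1 higher in diabetic mice and 13 of 30 lower in the model. The median of that list was -0.40 and -0.48, against 0.03 over all genes in both. Without those 2 arrays 9 and 6 of its 30 genes were lower. Of the 8 AP-1 relatives, 3 were lower and none higher in each comparison, and 1 was lower in each without those arrays. Nr4a2, the only tested relative of Nr4a1, was lower in both, also without them. Of 11 regulators of SRF and CREB target genes, 4 were higher and none lower in diabetic mice. Of 16 MAP kinase genes 2 were higher and none lower, which is near the share of all genes.

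Dusp16, a phosphatase of JNK and p38 MAP kinases, had the smallest p of these genes. It was at 6.49, 6.56 and 5.98 in healthy aorta and at 7.70, 7.61 and 7.55 in diabetic aorta, and at 6.25, 6.36 and 6.82 against 7.66, 7.98 and 7.77 in muscle. It was thus 1.3 higher in diabetic mice (SE 0.11, adjusted p = 9.91e-10) and 1.21 higher in the model (adjusted p = 5.07e-09), and no healthy array overlapped these groups.
Pim1, an early response kinase, was lower in diabetic mice (-1.04, adjusted p = 1.89e-07) and in the model (-1.03, adjusted p = 2.75e-07). In aorta it was at 8.05, 8.07 and 8.09 in healthy mice and between 6.36 and 6.99 in both untreated KK/Ay groups. Srf, the factor that binds the CArG box, was 1.11 higher in the model (SE 0.18, adjusted p = 8.54e-05), and its coactivator Mkl1 0.67 higher (adjusted p = 0.000942) and 0.80 higher in diabetic mice (adjusted p = 0.000142). Sik1, a kinase induced by cAMP, was lower in the model (-0.98, adjusted p = 0.000644). Gadd45g, a growth arrest gene, was lower in diabetic mice (-1.34, adjusted p = 8.66e-06). Without healthy aorta array 1 and muscle array 3 these genes kept their calls. In diabetic mice Dusp16 was then at 1.42, Pim1 at -0.98, Mkl1 at 0.90 and Gadd45g at -1.56, and in the model Srf was at 0.91 and Sik1 at -0.65.

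The difference from healthy mice itself differed between the tissues for Cebpd and Klf6 in both comparisons, and for Pim1 (-1.05, adjusted p = 0.0119) and Ctgf (2.28, adjusted p = 0.0494) in the model. Cebpd, a factor of the acute phase response, was lower in diabetic mice (-1.5, adjusted p = 6.81e-06). In muscle it was at 13.99, 12.62 and 14.48 on healthy and at 11.03, 10.99 and 10.92 on diabetic arrays, and in aorta at 11.89, 11.50 and 11.26 against 11.16, 11.38 and 11.23. The tissue difference was 2.42 (SE 0.42, adjusted p = 0.00235) in diabetic mice and 2.11 (adjusted p = 0.00458) in the model. Klf6, a zinc finger factor, was lower in muscle (-1.13 and -1.04) and gave tissue differences of 1.66 (adjusted p = 0.000939) and 1.84 (adjusted p = 0.000157). Without the 2 healthy arrays that stood apart, these tissue differences were 2.20 and 1.89 for Cebpd and 1.52 and 1.70 for Klf6, which all passed, and Ctgf (1.34, adjusted p = 0.221) did not. None of the 79 passed for SHENQI, yangyinyiqi or rosiglitazone. In huoxue muscle Dusp10 (-1.01), Atf1 (-0.58), Egr3 (-0.74) and Gadd45a (-1.69) were lower, with adjusted p from 0.0195 to 0.0279, on the slide named above.

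Correlations of Fos with the other members were computed across arrays. In aorta, over 21 arrays, Fos followed Nr4a1 (Pearson's r = 0.64, permutation p = 7e-05, adjusted p = 0.00126, Spearman's rho = 0.70, permutation p = 0.0007, adjusted p = 0.0126). Without the 2 arrays farthest from the median of Fos, r was 0.62, and within the 18 KK/Ay arrays it was 0.62. Over deviations from the mean of each set of 3 arrays it was 0.35. Adjustment was over 18 relations, 9 in each tissue. With Dusp1 in aorta r was 0.54 (rho = 0.58, permutation p = 0.0114 and 0.00687, adjusted p = 0.0294 and 0.0412), and 0.44 without the 2 farthest arrays. It was 0.72 within the KK/Ay arrays and 0.75 over deviations from set means. With Ier2 in aorta r was 0.49 (rho = 0.39), and 0.81 over these deviations. In muscle Fos followed Atf3 (r = 0.76, permutation p = 0.00054, adjusted p = 0.00486), but rho was 0.25 (permutation p = 0.265), and r fell to 0.27 without the 2 farthest arrays and to 0.16 without the healthy ones. Fos and Egr1 in muscle gave r = 0.70 (permutation p = 0.00101, adjusted p = 0.00571) and rho = 0.51 (permutation p = 0.0198, adjusted p = 0.0593), and r was 0.36 without the 2 farthest arrays. Both relations were thus weaker without those arrays. Without the healthy arrays r was 0.26 for Egr1. Over deviations from set means it was 0.69 for Egr1 and 0.36 for Atf3. Ier2 was the only member that passed with Fos in muscle on both measures (r = 0.67, permutation p = 0.00127, adjusted p = 0.00571, rho = 0.63, permutation p = 0.00255, adjusted p = 0.0229). Its r was 0.47 without the 2 farthest arrays, 0.44 without the healthy ones and 0.37 over deviations from set means. The Ier2 level averages 2 probes that did not follow each other (r = -0.17 in muscle and -0.27 in aorta). The dimmer one was above background on 10 of 21 muscle arrays, so the relation with Ier2 is uncertain. Nr4a1 did not follow Fos in muscle (r = 0.04, rho = 0.19, permutation p = 0.858 and 0.406).

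The 5 other genes most like Fos across the 21 aorta arrays, of 12617 genes above background on all of them, were 2410001C21Rik (r = 0.80), Ptdss1 (0.75), Ergic3 (0.75), Srp68 (0.73) and Fiz1 (0.71). In muscle, of 11751 genes, the 3 most like Fos were D230025D16Rik (r = 0.82), Dusp26 (0.81) and Plk3 (0.81). Plk3 is itself an early response kinase. These arrays share groups and slides, and the values are a description.

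**Figure D5:**
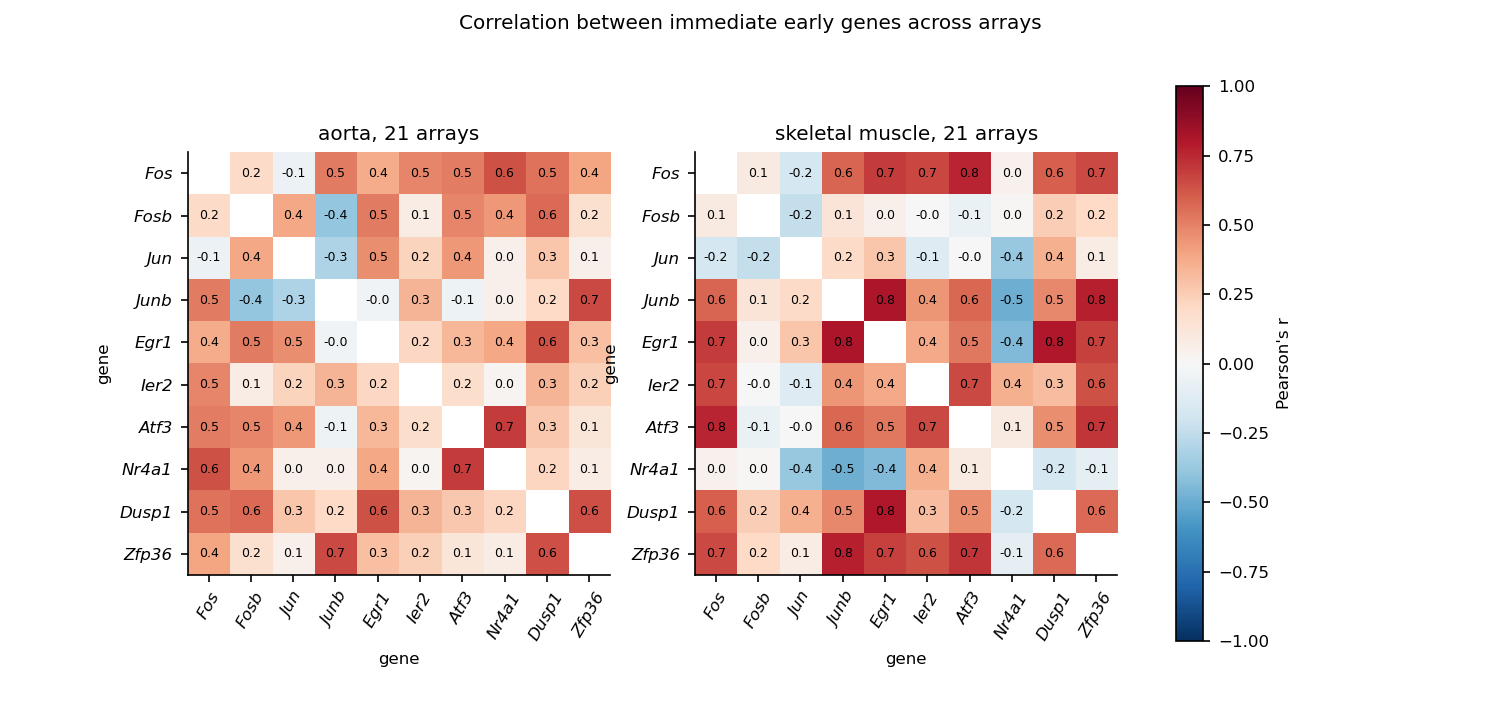
Pearson's r between each pair of immediate early genes across the 21 arrays of aorta (left) and of skeletal muscle (right), from -1 (blue) to 1 (red). Fos and Atf3 reach 0.76 in muscle and 0.51 in aorta, and Fos and Nr4a1 0.64 in aorta and 0.04 in muscle.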

How the data were processed

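Levels were measured in aorta and skeletal muscle of 7 groups of 3 mice, on 42 single-colour Agilent 4x44k arrays on 11 slides. The authors deposited the scanner output of Feature Extraction 10.7, from which median spot intensity and median background intensity were used, and a table of their own log2 values, which served as an alternative. Probes well above background, controls left out, numbered 23836 to 30272 per aorta array and 20197 to 26839 per muscle array. Background was corrected with normexp (offset 0), intensities were put on the log2 scale and quantile normalized over the 42 arrays, irregular spots were left out (28 of 1302 readings of the members), and spots and then probes of a gene were averaged. Tests covered genes with a probe detected well above background throughout at least 1 set of 3 arrays (16181 of 21186 genes). limma (3.58.1, R 4.3.3) fitted 14 means, with Benjamini-Hochberg adjustment over all genes tested. Before use, the procedure was checked on simulated intensities carrying known changes. All 10 members are named in every comparison, and of the listed relatives the 5 with the smallest p. Some genes that this rule or the likeness to Fos would name are not reported here. The members and lists were chosen with earlier results of these data known. Promoters were taken from RefSeq (GRCm38.p6). Probe positions on the array design are those of mm9. The number of arrays limits the precision. Correlation p-values used 100000 permutations and are two-sided. Alternatives were offset 50, the processed intensity scaled to the 75th percentile, the authors' log2 table, other filters, the brightest probe, smaller fits, slides as blocks, limma's trend and robust options, the replicate number as a block, and leaving out each array.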

Additional observations from a re-analysis of the deposited data

How the results depend on the processing

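With group G as reference and both tissues averaged, Fos passed under all 25 alternatives in diabetic mice (-1.53 to -0.83) and in the model (-1.44 to -0.83), and no called member changed sign under any alternative. Counts of members called moved as follows, and an unchanged count does not mean that the same members were called. Without healthy aorta array 2, the count stayed at 1 in diabetic aorta and at 4 in both comparisons with the tissues averaged. Nr4a1 did not pass in these 3 cases, so a member not called in the main fit was called in each. In diabetic mice with the tissues averaged, 4 became 1 with 12 arrays and a tissue term, 2 without healthy aorta array 1 and muscle array 3, 2 without healthy aorta arrays 1 and 2 (both chosen after seeing the data), and 2 to 5 without 1 array (2 without diabetic aorta array 3 or muscle array 2). In diabetic aorta, 1 became 2 with the brightest probe or slides 1, 3 and 11 as a batch term, 0 with 6 arrays alone or slide as a random block, and 0 to 2 without 1 array (2 without healthy array 3, 0 without diabetic array 2 or 3). In diabetic muscle, 3 became 1 with the authors' table, 0 with 6 arrays alone, 0 without the 2 healthy arrays that stood apart, and 0 to 3 without 1 array (0 without healthy array 3, 1 without diabetic array 1). In the model with the tissues averaged, 4 became 1 with 12 arrays and a tissue term, 2 with slide as a random block, and 1 to 5 without 1 array (1 without model aorta array 3, 2 without healthy muscle array 3 or model muscle array 1). In model aorta, 2 became 1 with the processed intensity, no filter, either slide term or either pair of healthy arrays left out, 0 with 6 arrays alone, and 1 to 2 without 1 array (1 without any 1 healthy array or model array 2 or 3). In model muscle, 2 became 1 with the authors' table or slide as a random block, 4 with the brightest probe, 5 with the batch term, 0 with 6 arrays alone or without the pair of arrays that stood apart, and 0 to 3 without 1 array (0 without healthy array 3, 1 without model array 1, 2 or 3). Tissue differences in the model became 1 without healthy aorta arrays 1 and 2 and 0 to 3 without 1 array. With 6 arrays alone, 3 members were called in huoxue and 1 in rosiglitazone muscle, and the share of all genes called in those fits is not given here. The cause was not tested. The tissue comparison gave 7 to 9 members. The processed intensity moved the median of all genes by 0.20 in diabetic and 0.14 in model muscle.

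Arrays share replicate numbers across groups. In none of 21 comparisons and group pairs did every same-numbered pair correlate above 0.1 (r from -0.54 to 0.60). Because aorta and muscle are unlike tissues, this cannot tell whether their samples of the same number came from the same mouse. The main fit takes all samples as separate. With the replicate block, Fos stayed at -1.06 in diabetic mice (adjusted p = 0.00536), and the counts with the tissues averaged were 4 and 4, as without it. Signal over background limits Fosb in muscle and the dimmer Ier2 and Zfp36 probes.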
